A study of Mus musculus with 8 samples.

Results

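Pertussis toxin (PTX) given together with complete Freund's adjuvant (CFA) was compared with CFA alone in mouse lymph node (LN) RNA. The comparison rested on the 2 arrays described in the labels as CFA plus PTX and the 2 described as CFA, paired by genotype, of 8 arrays in the series. WT pairs are C57Bl/6 mice, and H3RKO pairs are mice of that background carrying a deletion of Hrh3, the gene of the histamine H3 receptor. The RNA on an array came from a pool of no fewer than 3 mice of both sexes at 8 weeks of age, and the treated mice were killed 24 h after injection. Each treatment (CFA, CFA+PTX) had 1 array per genotype, and each genotype had 2 untreated arrays. For the array mice the methods say only that CFA or CFA+PTX was injected. In other experiments of the study PTX went into a vein after the CFA. The sources used here mention no vehicle injection for the CFA mice, so the toxin and the injection cannot be told apart. No array of the series is described as PTX without CFA. The short headings of the 2 arrays with toxin leave CFA unmentioned, whereas their longer descriptions and the methods include it. The groups here follow the descriptions, and the difference in wording was not resolved. With 1 pool per treated group, the p-values measure the spread between these arrays, in part technical, and whatever else differed between 2 pools cannot be told apart from PTX.

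Pertussis toxin is the exotoxin of Bordetella pertussis. It transfers ADP-ribose to the alpha subunits of the Gi/o family of G proteins, which uncouples them from receptors, chemokine receptors and the histamine H3 receptor among them. Lymphocytes and other leukocytes then enter and leave tissues differently, and adenylyl cyclase is released from Gi inhibition. PTX is used with CFA to induce experimental autoimmune disease, and CFA alone, an emulsion of mineral oil and killed mycobacteria, is the adjuvant. In whole LN RNA, fewer cells of a type and less RNA per cell cannot be told apart.

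The array measured 22626 probe sets in log2 units of signal, which gave 1 value for each of 12393 genes, that of the gene's brightest probe set. A difference is CFA+PTX minus CFA on the log2 scale, with its standard error (SE) from a linear model of genotype and treatment over all 8 arrays. Values of the 4 untreated arrays are given as a range. LN genes were high throughout, as the B cell gene Ms4a1 lay between 12.72 and 13.16 and the chemokine receptor Ccr7 between 11.25 and 11.91 on all 8 arrays. The Hrh3 probe set gave 6.56 to 6.66 on the 4 arrays labelled WT and 7.20 to 7.29 on the 4 labelled H3RKO. It was thus higher where the gene is deleted. Its place relative to the deletion is not given in the sources used here, so it does not check the labels, and the genotypes below are those of the labels. Its PTX difference was -0.04 ± 0.07 SE (95% interval of the difference -0.20 to 0.12). The mean difference between 3′ and 5′ control probe sets, a measure of RNA quality, was 0.32 in WT CFA, 0.44 in H3RKO CFA, 0.35 in WT CFA+PTX and 0.30 in H3RKO CFA+PTX.

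No probe set passed an adjusted p under 0.05 for PTX in limma (smallest adjusted p = 0.448, for Slc27a3), and 1238 probe sets (5.47%) had an unadjusted p under 0.05, where chance alone gives 1131. Of these, 727 (3.21%) were higher and 511 (2.26%) lower. The criterion of the methods, an unadjusted p under 0.05 with a fold change over 2, was passed by 15 probe sets (0.0663%) and by 11 genes (0.0888%). Of these genes 2 were higher (0.0161%) and 9 lower (0.0726%) with PTX, and each had the same sign in the WT and the H3RKO pair. Over all genes 26.6% were higher in both pairs, 29.2% were lower in both (55.8% of 1 sign) and 44% had opposite signs. The shares of 26.6% and 29.2% are the background for each list's counts of genes higher or lower in both pairs. Lists were chosen with earlier results of these data known, so their counts carry no test. The WT difference spread with an SD of 0.32 over the genes and the H3RKO difference with an SD of 0.18. Pearson's r between both differences was 0.02 and Spearman's rho 0.20 across genes, which are not independent replicates.

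Genes in the same direction were those past 1.5-fold in each pair. There were 22 of them in 12393, namely 10 higher (0.0807%) and 12 lower (0.0968%), and this class was set by the 4 values themselves, so it carries no test of its own. Genes past 2-fold in the WT pair, with H3RKO under 1.5-fold or of opposite sign, numbered 51, of which 13 were higher (0.105%) and 38 lower (0.307%). The same rule turned to the H3RKO pair gave 28. The 2 sets shared 9 genes, past 2-fold in opposite directions, which left 42 of the WT pair only and 19 of the H3RKO pair only. These 19 were 11 higher (0.0888%) and 8 lower (0.0646%). Of the 9 shared genes 7 were lower and 2 higher in WT. Just inside the 1.5-fold limit lay Il12b, at 1.10 in WT and 0.60 in H3RKO, and Gas6, at 0.88 and 0.60. Just outside lay Peg3, at 0.58 and 0.85, and Igkv6-20, at -1.91 and -0.57.

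**Figure D1:**
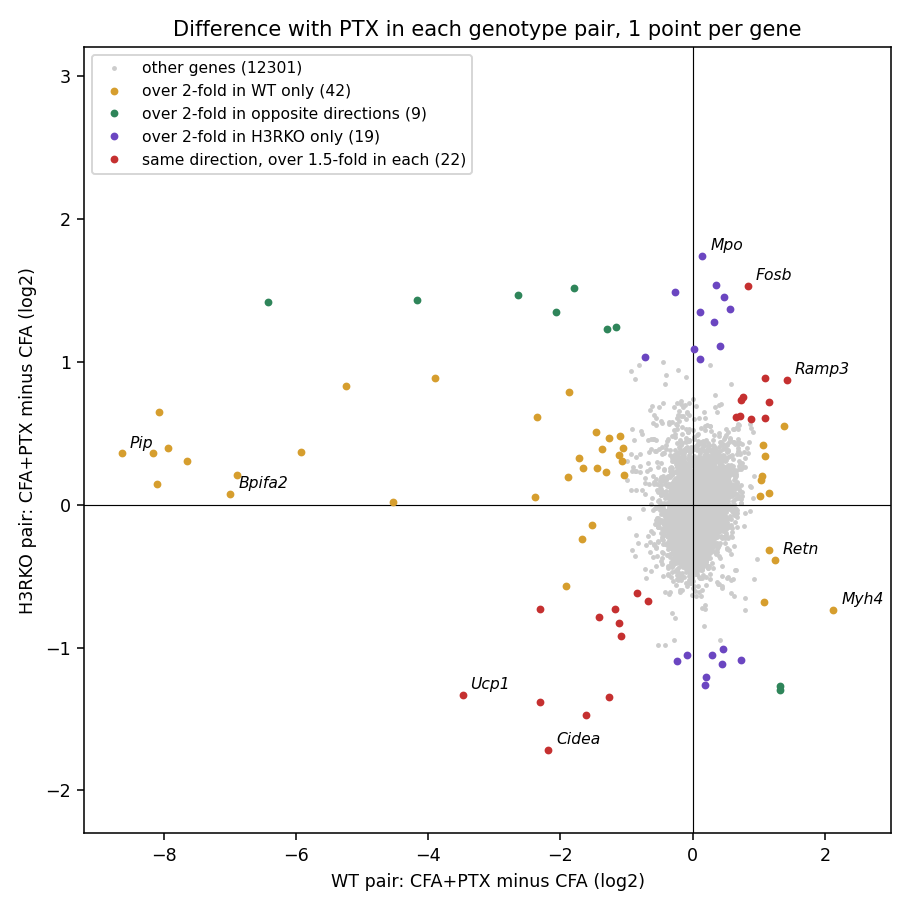
Each point is 1 of 12393 genes, with the CFA+PTX minus CFA difference (log2) of the WT pair on the x axis and of the H3RKO pair on the y axis. Genes past 1.5-fold in the same direction in both pairs are red (22), those past 2-fold in WT only yellow (42), in H3RKO only purple (19) and in opposite directions green (9). Ucp1 and Cidea lie low in both pairs, and the gland gene Pip lies at -8.64 in WT and 0.36 in H3RKO.

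The promoters of the same-direction genes were read from RefSeq (GRCm38.p6), as the 250 bases before an annotated start. Of the 22 genes, 18 had such a promoter to use here, 20 promoters in all. Those of Ramp3, Fosb and Ucp1 are shown because these genes had the largest differences of the class in their direction, and those of Errfi1 and Dio2 because they held the cAMP response element. Capitals mark a motif found on either strand.
Ramp3, chr11:6658283-6658532, plus strand: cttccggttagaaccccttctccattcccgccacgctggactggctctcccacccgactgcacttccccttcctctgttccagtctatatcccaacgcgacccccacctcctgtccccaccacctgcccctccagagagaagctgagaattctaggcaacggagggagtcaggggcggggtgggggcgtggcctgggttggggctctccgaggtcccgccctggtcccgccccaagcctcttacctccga
Fosb, chr7:19310046-19310295, minus strand: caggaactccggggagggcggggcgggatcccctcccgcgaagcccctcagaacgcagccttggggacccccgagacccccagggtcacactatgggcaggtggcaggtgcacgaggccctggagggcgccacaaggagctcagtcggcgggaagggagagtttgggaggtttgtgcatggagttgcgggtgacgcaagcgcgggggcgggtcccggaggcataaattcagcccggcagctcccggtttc
Errfi1, chr4:150854820-150855069, plus strand: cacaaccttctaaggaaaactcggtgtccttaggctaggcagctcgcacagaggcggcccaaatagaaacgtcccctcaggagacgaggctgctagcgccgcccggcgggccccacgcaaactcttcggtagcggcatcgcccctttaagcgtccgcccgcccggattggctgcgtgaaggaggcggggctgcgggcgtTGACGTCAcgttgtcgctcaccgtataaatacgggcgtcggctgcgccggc
Dio2, chr12:90739039-90739288, minus strand: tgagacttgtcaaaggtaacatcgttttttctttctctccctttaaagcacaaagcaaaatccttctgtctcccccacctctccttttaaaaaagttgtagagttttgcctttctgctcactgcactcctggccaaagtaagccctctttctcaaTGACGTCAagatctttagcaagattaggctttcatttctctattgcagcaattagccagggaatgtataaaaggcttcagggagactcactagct
Ucp1, chr8:83290098-83290347, plus strand: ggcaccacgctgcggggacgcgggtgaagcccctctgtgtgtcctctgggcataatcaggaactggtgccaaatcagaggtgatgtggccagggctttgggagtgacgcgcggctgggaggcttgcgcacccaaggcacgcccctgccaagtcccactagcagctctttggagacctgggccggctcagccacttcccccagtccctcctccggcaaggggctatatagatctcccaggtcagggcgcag

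The motifs searched on both strands were the cAMP response element TGACGTCA, the AP-1 site TGANTCA, the E-box CACGTG, the D-box TTATGTAA, the interferon-stimulated response element and the glucocorticoid response element. No window held more than 1 of them. The cAMP response element stood in 1 Errfi1 promoter, from 51 bases before the start, and in the Dio2 promoter, from 95 bases before it. The same letters were in 1.55% of 32851 promoters of the table. Errfi1 was among the higher genes and Dio2 among the lower. The AP-1 site was in the Klf9 promoter (6.75% of all promoters) and the E-box in both Adtrp promoters (6.02%). The 2 Adtrp windows overlap, and this E-box is 1 site that lies in both. The D-box (0.819%), the interferon-stimulated response element (2.98%) and the glucocorticoid response element (0.00913%) were in none of the 20. These matches are descriptions of the letters, and the other Errfi1 promoter held none.

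Among the genes higher with PTX in both genotypes, Ramp3 and Fosb passed the criterion. Ramp3 encodes a receptor activity-modifying protein, a partner of the calcitonin-like receptor for adrenomedullin. Its log2 signal was 10.04 in WT CFA+PTX and 9.51 in H3RKO CFA+PTX, against 8.62 in WT CFA, 8.63 in H3RKO CFA and 8.39 to 8.70 untreated. Both CFA+PTX arrays thus lay above all 6 other arrays, and the CFA arrays lay within the untreated range. The difference was 1.15 ± 0.18 SE, a 2.22-fold higher signal (unadjusted p = 0.000332, adjusted p = 0.855, limma). By pair it was 1.43 in WT and 0.87 in H3RKO. The genotype difference of Ramp3, H3RKO minus WT, was -0.55 (unadjusted p = 0.0215, limma), under 2-fold and so short of the criterion. The receptor partner of Ramp3, Calcrl, differed with PTX by 0.07 ± 0.10 SE, the ligand gene Adm by -0.21 ± 0.10 and Ramp2 by 0.15 ± 0.10. These 3 genes were chosen after their values were seen.

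Fosb, a member of the AP-1 family that is transcribed within minutes of a stimulus, was 6.11 in WT CFA+PTX and 7.01 in H3RKO CFA+PTX. It was 5.27 in WT CFA, 5.48 in H3RKO CFA and 5.38 to 5.73 untreated. Again no array without PTX reached either array with it, and H3RKO was the higher of the pair. The difference was 1.18 ± 0.22 SE (2.27-fold, unadjusted p = 0.00084, adjusted p = 0.855). The gene's H3RKO difference exceeded its WT difference by 0.70 (unadjusted p = 0.0498, limma), which is under 2-fold and therefore short of the criterion for a genotype difference. Fosb did not pass without the H3RKO CFA+PTX array, at 0.79, and Ramp3 did not pass without the WT CFA+PTX array, at 0.80.

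Slc27a3, an acyl-CoA synthetase of the fatty acid transport family, had the smallest p of the comparison. Its signal was 7.71 and 7.33 in WT and H3RKO CFA+PTX, 6.63 and 6.44 in WT and H3RKO CFA, and 6.27 to 6.56 untreated. Both CFA+PTX arrays lay above all 6 others, and the genotypes lay close together. The difference was 0.99 ± 0.10 SE (95% interval of the difference 0.75 to 1.23), just under the 2-fold limit (1.98-fold, unadjusted p = 1.98e-05).

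Il12b encodes the p40 subunit shared by interleukin-12 and interleukin-23. Its brightest probe set gave 6.98 and 6.18 in WT and H3RKO CFA+PTX, 5.88 and 5.57 in WT and H3RKO CFA, and 5.94 to 6.24 untreated. The H3RKO CFA+PTX array lay within the untreated range, while both CFA arrays lay below it. The difference was 0.85 ± 0.20 SE. Its second probe set passed the criterion, at 1.04 ± 0.20 SE. The other genes of this class were Errfi1, an inhibitor of the epidermal growth factor receptor (0.94 ± 0.29 SE), Adamts15, a secreted metalloprotease (0.76 ± 0.16), Gas6, the ligand of the Tyro3, Axl and Mertk receptors (0.74 ± 0.13), Dpep1, a membrane dipeptidase (0.73 ± 0.22), Klf9, a zinc finger factor induced by glucocorticoids (0.67 ± 0.18), and Sfrp2, a secreted Wnt modulator (0.63 ± 0.09).

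Of these 10 higher genes, both CFA+PTX arrays lay above all 6 others for 6, namely Ramp3, Fosb, Slc27a3, Klf9, Gas6 and Adamts15. Over all genes this held for 7.22%, and the class fixed part of it. Sfrp2 was different in kind. It was 7.88 and 7.69 in WT and H3RKO CFA+PTX and 7.78 to 7.94 untreated, whereas WT CFA and H3RKO CFA had 7.23 and 7.08. The signal with PTX lay at or near the untreated level and that of CFA alone below it.

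**Figure D2:**
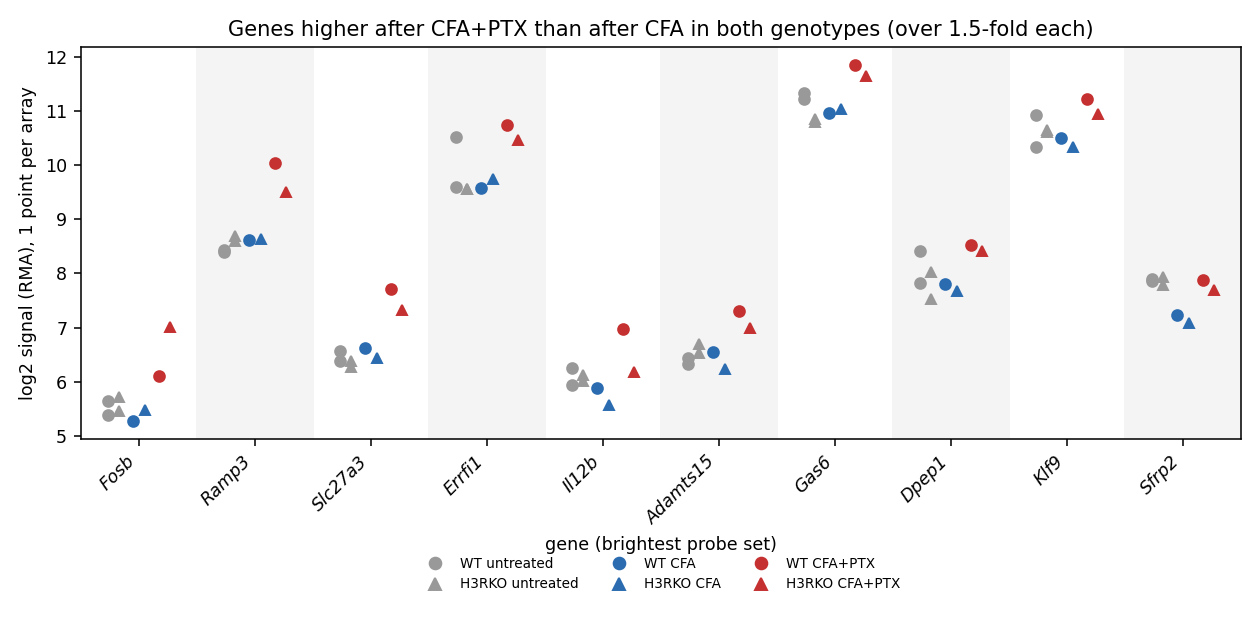
The log2 signal of the 10 genes higher with PTX in both genotypes, 1 point per array, with untreated arrays grey, CFA blue and CFA+PTX red, WT as circles and H3RKO as triangles. The 2 red points lie above both blue points for every gene, and for Sfrp2 the red points lie at or just below the grey.

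Of the 12 lower genes 7 were of the brown fat list, genes of the tissue that burns lipid for heat. All 10 measured members of the brown fat list were lower with PTX in both pairs (29.2% of all genes were), and the list's median difference was -1.41, beside a median of -0.003 over all genes. The median was -1.65 in the WT pair and -1.08 in the H3RKO pair. By the criterion 6 of the 10 were lower (0.0726% of all genes), and by an unadjusted p under 0.05 alone 9 of 10 (2.65%). Both CFA+PTX arrays lay below both CFA arrays for all 10 genes (20.6% of all genes), but below all 6 other arrays for Dio2 alone. The list was chosen with earlier results of these data known. As 7 of the 10 belong to a class set by these same values, part of these counts was fixed and they carry no test.

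Ucp1, the uncoupling protein of brown fat mitochondria, gave the largest difference past the criterion. Its signal was 7.58 in WT CFA+PTX and 10.01 in H3RKO CFA+PTX, against 11.06 in WT CFA, 11.34 in H3RKO CFA and 9.14 to 10.98 untreated. WT CFA+PTX was the lowest array, and H3RKO CFA+PTX stood inside the untreated range. The difference was -2.41 ± 0.68 SE, a 5.31-fold lower signal that was 11.2-fold in the WT pair and 2.52-fold in the H3RKO pair (unadjusted p = 0.00902, adjusted p = 0.89).

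Cidea, a lipid droplet protein of brown fat, was 7.72 and 8.85 in WT and H3RKO CFA+PTX, 9.91 and 10.57 in WT and H3RKO CFA, and 8.38 to 10.15 untreated. The pair differences were -2.19 in WT and -1.72 in H3RKO (combined -1.95 ± 0.45 SE). Cox8b and Cox7a1, the cytochrome c oxidase subunits of heart and brown fat, differed by -1.54 ± 0.35 and -1.84 ± 0.49. Fabp3, a carrier of fatty acids, differed by -1.52 ± 0.52, and Slc27a2, a very-long-chain acyl-CoA synthetase, by -1.31 ± 0.44. Dio2, the deiodinase that makes active thyroid hormone in brown fat, was 4.96 and 5.26 in WT and H3RKO CFA+PTX, 6.08 and 6.09 with CFA, and 5.36 to 5.91 untreated. For Dio2 no array without PTX was as low as either array with it (difference -0.97 ± 0.19 SE).

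The remaining members were Elovl3, a fatty acid elongase (-0.96 ± 0.40), Pank1, a pantothenate kinase (-0.43 ± 0.09), and Ppargc1a, the coactivator of mitochondrial genes (-0.27 ± 0.14), which did not reach an unadjusted p of 0.05. The list mean per array put these values in scale. It was 6.39 in WT CFA+PTX and 7.45 in H3RKO CFA+PTX, 8.08 in WT CFA and 8.40 in H3RKO CFA, and 7.84, 6.86, 7.91 and 7.50 in the untreated arrays (WT, then H3RKO). The CFA arrays were the highest of the 8, and the H3RKO CFA+PTX array lay within the untreated range. The count of brown fat genes past the criterion was 6 of 10 in the full fit, 2 without the WT CFA+PTX array, 4 without the WT CFA array and 8 without the H3RKO CFA+PTX array. Only Cidea and Cox8b passed whichever of the 8 arrays was left out.

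The class of 12 also held Gpd1 and Pck1 of the white adipocyte list. Gpd1, the glycerol phosphate dehydrogenase, was lower than on all 6 other arrays with PTX (9.08 and 9.61 in WT and H3RKO, against 10.17 and 10.53 with CFA and 9.68 to 10.46 untreated, difference -1.01 ± 0.25 SE). Pck1, an enzyme of glyceroneogenesis and gluconeogenesis, was 7.72 and 8.86 against 9.15 and 9.65 with CFA (-1.10 ± 0.42), and its criterion call was lost when any of 4 arrays was left out. White adipocyte genes as a list did not share a direction. Of 30, 2 were higher and 10 lower in both pairs and 18 had opposite signs, and the median was 0.14 in WT and -0.38 in H3RKO. Lpl, lipoprotein lipase, differed by -0.54 ± 0.14 and Dgat2, which completes triglyceride synthesis, by -0.70 ± 0.21, while Adipoq, adiponectin, differed by 0.44 in WT and -0.58 in H3RKO. Adipoq was named after its values were seen. How much fat tissue each pool held was not tested.

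**Figure D3:**
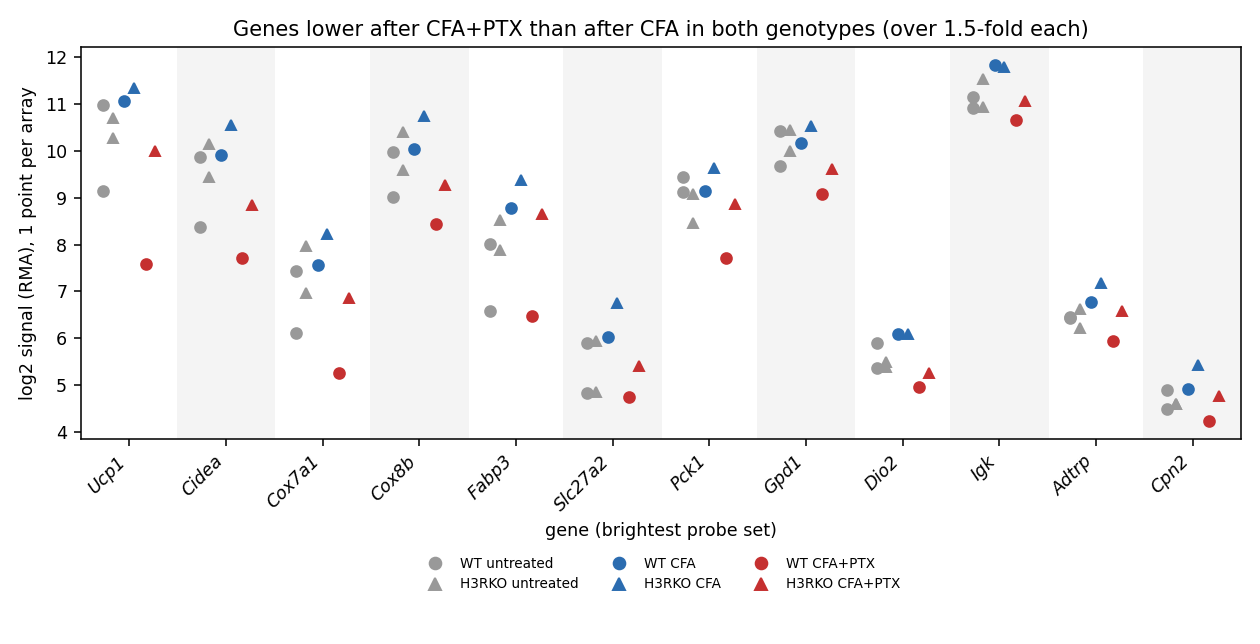
The log2 signal of the 12 genes lower with PTX in both genotypes, 1 point per array, coloured by treatment (untreated grey, CFA blue, CFA+PTX red) with WT as circles and H3RKO as triangles. The red points lie below the blue for every gene, and except for Gpd1 and Dio2 at least 1 red point lies among or above grey points.

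The respiratory chain list differed in size but not in direction. All 22 measured subunits were lower in both pairs, with a median of -0.15 (WT -0.10, H3RKO -0.17), and for 16 of 22 both CFA+PTX arrays lay below both CFA arrays (20.6% of all genes). For 14 of 22 they lay below all 6 other arrays (6.41%). None of these differences reached the criterion and 4 had an unadjusted p under 0.05 (2.65%). The largest was in Cycs, cytochrome c, at -0.31 ± 0.09 SE (11.44 and 11.60 in WT and H3RKO CFA+PTX, 11.76 and 11.89 with CFA, 11.79 to 12.04 untreated), followed by Atp5o, Sdhb and Uqcrc1, each between -0.21 and -0.19. Fatty acid oxidation genes were lower in both pairs for 17 of 21 (median -0.24), but below all 6 other arrays for only 2 of 21 (6.41%). Their mean was 9.235 and 9.489 in WT and H3RKO CFA+PTX, 9.487 and 9.677 with CFA, and 9.258 to 9.524 untreated. The H3RKO CFA+PTX array thus lay within the untreated range. Ppara, the receptor that induces them, was at -0.61 ± 0.25, Ehhadh at -0.47 ± 0.13 and Eci1 at -0.35 ± 0.10. Cholesterol synthesis genes were lower in both for 11 of 14 (median -0.19), Lss at -0.27 ± 0.10 and Cyp51 at -0.22 ± 0.10. Idi1 differed by -0.35 ± 0.16.

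Igk, an immunoglobulin kappa entry, was also among the 12 lower genes. It gave 10.67 and 11.06 in WT and H3RKO CFA+PTX, 11.84 and 11.79 in WT and H3RKO CFA, and 10.91 to 11.53 untreated. Of its 4 probe sets 3 had this sign. Igkv6-20, a kappa variable segment that passed the criterion but lay outside the class, was 6.65 and 7.01 with PTX, 8.56 and 7.58 with CFA and 6.77 to 7.21 untreated (difference -1.24 ± 0.31 SE). Its difference was -0.66 without the WT CFA array and -0.92 without the WT CFA+PTX array, and the call was lost in both cases. For Igk and Igkv6-20 the CFA arrays were the high ones. The probes of such gene segments can take up RNA of related segments, so their signals are uncertain. Adtrp, a lipid hydrolase (-0.73 ± 0.20), and Cpn2, a carboxypeptidase N subunit (-0.68 ± 0.20), completed the class of 12.

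The targets of the toxin itself showed small differences in RNA. The main Gi alpha subunit of lymphocytes, Gnai2, was 12.88 and 12.81 in WT and H3RKO CFA+PTX and 12.99 and 12.96 in WT and H3RKO CFA (difference -0.13 ± 0.10 SE, 95% interval of the difference -0.35 to 0.10). Gnai3 differed by -0.03 ± 0.07 (interval -0.20 to 0.14) and Gnao1 by -0.04 ± 0.10. Gnai1, a Gi alpha subunit of lower signal, was 7.67 and 7.82 with PTX, 7.18 and 7.55 with CFA and 8.03 to 8.38 untreated, so that its difference of 0.38 ± 0.16 left it below the untreated arrays. ADP-ribosylation acts on protein and these arrays do not measure it. In the list of Gi alpha subunits and the cAMP pathway 9 of 25 genes were higher in both pairs and 8 lower (median -0.04), and 3 were higher at an unadjusted p under 0.05 (3.33% of all genes). These were Gnai1, Crem, a cAMP-responsive transcription factor (0.53 ± 0.20), and Pde4b, a cAMP phosphodiesterase (0.26 ± 0.09), which was higher than on all 6 other arrays.

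The receptors that guide lymphocytes into and out of LN signal through Gi. Ccr7, the receptor for entry along chemokines of the T zone, was 11.91 and 11.70 in WT and H3RKO CFA+PTX, 11.47 and 11.37 in WT and H3RKO CFA, and 11.25 to 11.41 untreated. It was higher with PTX than on all 6 other arrays (difference 0.39 ± 0.08 SE, 1.31-fold, unadjusted p = 0.00208). Cxcr4 was in the same order with a difference of 0.20 ± 0.12, and Cxcr5, of B cell follicles, differed by -0.29 ± 0.13. S1pr1, the exit receptor, differed by 0.04 ± 0.12 and Klf2, which drives its expression, by 0.07 ± 0.07. Cxcr3, of activated T cells, was 9.21 and 9.22 against 9.41 and 9.49 with CFA (-0.23 ± 0.09). In all, 4 of 16 homing and exit receptors were higher in both pairs and 5 lower, with a median of 0.01, which is near the background of 26.6% and 29.2%.

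Lymphocyte lists differed little and unevenly. Il7r, the receptor for the survival cytokine of naive T cells, was 12.47 and 12.13 in WT and H3RKO CFA+PTX, 11.61 and 11.57 in WT and H3RKO CFA, and 11.34 to 11.67 untreated (difference 0.71 ± 0.15 SE). Its ligand Il7 was also above all 6 other arrays (9.97 and 9.83 with PTX, 8.94 to 9.58 on the rest, 0.71 ± 0.20), as was the B cell survival factor Tnfsf13b (0.52 ± 0.11). Lta, lymphotoxin alpha, was below all of them (8.48 and 8.46 with PTX, 8.76 to 8.82 on the rest, -0.32 ± 0.07). The naive and memory T cell list nevertheless had a median of 0.01, with 7 of 17 higher and 4 lower in both pairs. B cell genes were lower in both pairs for 11 of 15 (29.2% of all genes, median -0.18, WT -0.26 and H3RKO -0.046), with the marker Ms4a1 at -0.26 ± 0.10 and the complement receptor Cr2 at -0.34 ± 0.11.

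NK and cytotoxic lymphocyte genes were lower in both pairs for 9 of 13 (median -0.23, against 29.2% of all genes). At an unadjusted p under 0.05, 3 of 13 were lower (2.65% of all genes). Gzma, granzyme A, was 9.53 and 9.20 in WT and H3RKO CFA+PTX and 9.81 to 10.05 on the other 6 arrays (difference -0.52 ± 0.13 SE). Nkg7, of cytotoxic granules, was 10.90 and 11.07 with PTX and 11.26 to 11.43 on the rest (-0.30 ± 0.08). Both lay below all 6 other arrays with PTX. The T cell activation list had 7 of 22 genes higher and 10 lower in both pairs (median -0.03). It held Tbx21, the factor that drives interferon gamma production (-0.39 ± 0.11). On the higher side it held Ctla4 (0.36 ± 0.13) and Rora (0.33 ± 0.13), both above all 6 other arrays. The dendritic cell list had 5 of 18 higher and 8 lower (median -0.02). Its members Xcr1, the receptor of cross-presenting dendritic cells (-0.49 ± 0.11), and Ccr7 (0.39 ± 0.08) differed in opposite directions.

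Vessel, stroma and macrophage lists were mostly higher with PTX. High endothelial venule and blood vessel genes were higher in both pairs for 16 of 22 (26.6% of all genes), with a median of 0.16 (WT 0.26, H3RKO 0.057). Their mean was 9.551 and 9.314 in WT and H3RKO CFA+PTX, 9.297 and 9.230 with CFA, and 9.197 to 9.354 untreated. The H3RKO CFA+PTX array thus lay within the untreated range. Both CFA+PTX arrays lay above all 6 others for 6 of 22 (7.22% of all genes). Ackr1, the chemokine-binding receptor of LN venules, was 10.29 and 9.88 in WT and H3RKO CFA+PTX, 9.57 and 9.45 with CFA and 9.46 to 9.63 untreated (difference 0.58 ± 0.12 SE). Lymphatic endothelium genes were higher in both pairs for 6 of 7 (median 0.23), and LN macrophage genes for 14 of 18 (median 0.17), among them Mertk, a receptor for Gas6 (0.52 ± 0.14). For Ackr1 and Mertk no other array was as high as either CFA+PTX array.

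Extracellular matrix genes were higher in both pairs for 19 of 25 (median 0.13), but here the reference level differed. The list mean was 10.17 to 10.27 untreated, 9.70 and 9.74 in WT and H3RKO CFA and 9.85 and 9.83 in WT and H3RKO CFA+PTX. All 4 treated arrays were thus below the untreated, and those with PTX stood between. Fn1, fibronectin, at 10.72 and 10.60 with PTX, 10.19 and 10.27 with CFA and 11.13 to 11.27 untreated, had this order (difference 0.43 ± 0.09 SE), whereas Mmp2, a gelatinase, reached the untreated range in the WT array (9.14) and not in the H3RKO array (8.83).

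Genes known to respond to glucocorticoids, the adrenal steroids raised by stress, were higher in both pairs for 16 of 25, with a median of 0.22 (WT 0.34, H3RKO 0.23). The counts were 9 of 25 at an unadjusted p under 0.05 (3.33% of all genes), 14 with both CFA+PTX arrays above both CFA arrays (19.5%) and 9 with both above all 6 others (7.22%). The list mean was 10.087 and 10.062 in WT and H3RKO CFA+PTX and 9.815 and 9.835 with CFA. In the untreated arrays it was 9.834 and 9.561 in WT and 9.856 and 9.649 in H3RKO. Untreated arrays of 1 genotype thus differed about as much as CFA+PTX and CFA did. Fkbp5, a chaperone of the receptor, was 11.28 and 11.19 in WT and H3RKO CFA+PTX, 10.75 and 10.68 with CFA and 10.56 to 11.01 untreated (difference 0.52 ± 0.13 SE). Sgk1, a kinase, was at most 10.76 without PTX and above that in both genotypes with it (0.40 ± 0.09). Tsc22d3, known as GILZ, differed by 0.31 ± 0.12, Gadd45g by 0.45 ± 0.09 and Dusp1, a phosphatase of MAP kinases, by 0.51 ± 0.11. The list also held genes on the other side, for Hsd11b1, which regenerates the active steroid, was below all 6 other arrays (-0.43 ± 0.10) and Pdk4 differed by -0.55 ± 0.36. Il7r, Klf9, Errfi1 and Per1 are members as well. Steroid levels were not measured, and the part of the injection in these values was not tested.

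Immediate early genes other than Fosb had a wide spread. Klf4 was 9.69 and 9.51 in WT and H3RKO CFA+PTX, 9.13 and 9.04 with CFA and 8.89 to 9.05 untreated, so that both CFA+PTX arrays lay above all 6 others (difference 0.51 ± 0.07 SE, unadjusted p = 0.000117). Fos was 10.32 and 11.35 with PTX, 9.84 and 9.89 with CFA and 9.60 to 10.06 untreated. It was higher than on all 6 other arrays, and 1.45 in H3RKO against 0.47 in WT. The genotype difference of Fos was 0.98 (unadjusted p = 0.00664), just under the 2-fold criterion. Of the list 9 of 24 genes were higher in both pairs and 2 lower, with a median of 0.02. The other 13 had opposite signs, and 12 of 24 were higher in the WT pair against 19 in the H3RKO pair. At an unadjusted p under 0.05, 5 were higher (3.33% of all genes) and 0 lower (2.65%). Both CFA+PTX arrays lay above all 6 others for 6 of 24 (7.22%) and below them for 1 (6.41%), Egr2 (-0.35 ± 0.16).

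**Figure D4:**
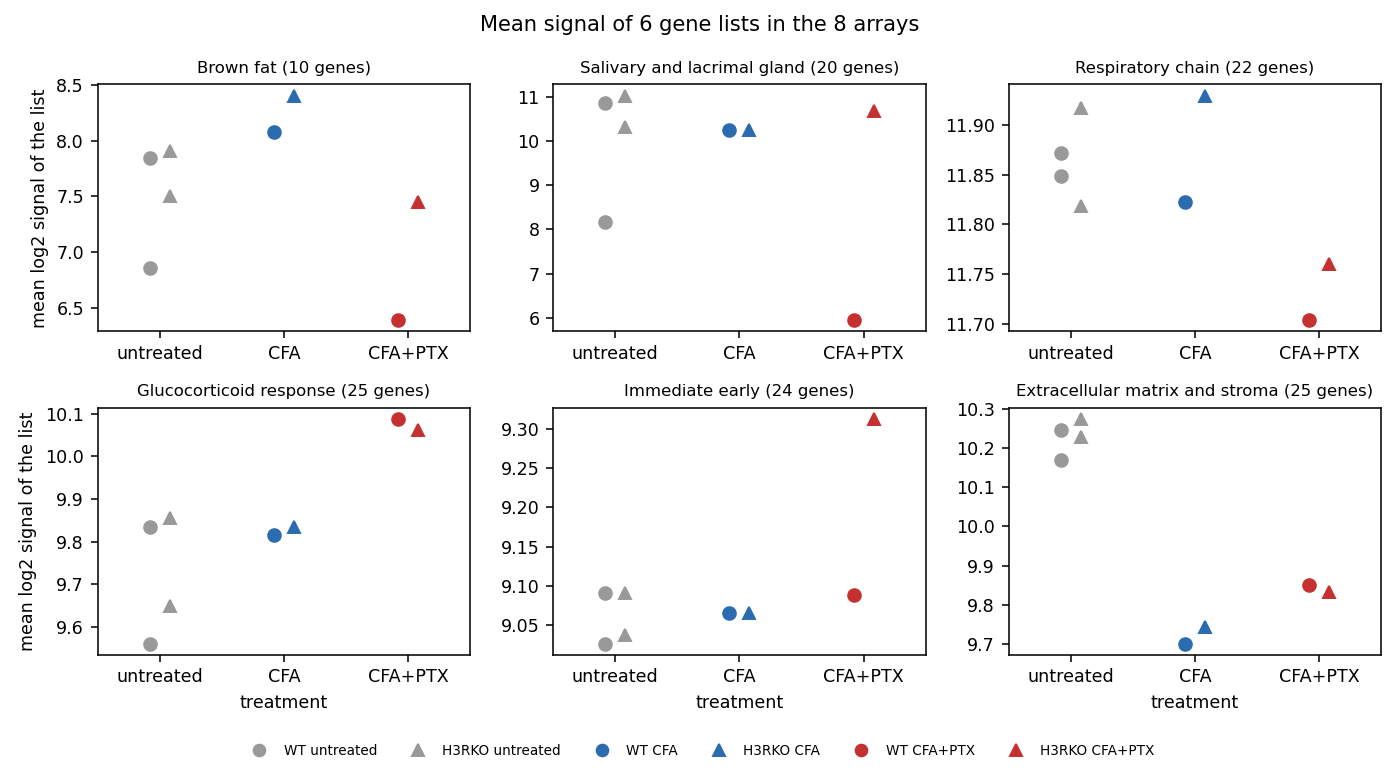
The mean log2 signal of 6 gene lists in the 8 arrays, by treatment on the x axis, with WT as circles and H3RKO as triangles and a y axis of its own in each panel that does not start at 0. Every list but the gland list places both CFA+PTX arrays on 1 side of both CFA arrays. For immediate early genes the WT gap is small (9.089 with PTX, 9.066 with CFA). The gland list is low in WT CFA+PTX alone among the treated arrays.

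The remaining genes were those in which the genotype pairs parted. By the fitted genotype difference of the PTX effect no probe set passed an adjusted p under 0.05 in limma (smallest adjusted p = 0.206), and 791 (3.5%) had an unadjusted p under 0.05. The criterion was passed by 167 probe sets (0.738%) and 66 genes (0.533%), 42 with the H3RKO pair above the WT pair and 24 below. None of the 22 same-direction genes was among the 66, though Igkv6-20 was (genotype difference 1.34, unadjusted p = 0.0105). This fit has 2 residual degrees of freedom, from the untreated arrays alone.

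Of the 38 genes lower by the WT pair rule, 15 were of the salivary and lacrimal gland list, secreted proteins and enzymes of gland acini. Pip, prolactin-induced protein of saliva and tears, was 4.28 in WT CFA+PTX, 13.15 in H3RKO CFA+PTX, 12.91 in WT CFA and 12.79 in H3RKO CFA. In the untreated arrays it was 9.67 and 13.37 in WT and 13.07 and 13.46 in H3RKO. The WT CFA+PTX array stood alone at the bottom, and 1 untreated WT array lay between it and the rest. Bpifa2, a parotid secretory protein, was 7.09 in WT CFA+PTX, 14.10 in H3RKO CFA+PTX, 14.09 and 14.03 with CFA, and 13.08 to 14.13 untreated. Its genotype difference was the one with the smallest unadjusted p among the named gland genes, 7.07 ± 0.65 SE (unadjusted p = 5.71e-05).

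Dnase1, Smr3a, Cst10, Chia1, Car6, Scgb2b27 and Amy1, respectively a nuclease, a salivary peptide precursor, a cystatin, a chitinase, a carbonic anhydrase, a secretoglobin and an amylase, followed the same order. Their WT differences ran from -8.16 to -5.92, and their H3RKO differences from 0.15 to 1.42, the highest being that of Scgb2b27, which was past 2-fold in opposite directions. The unnamed Riken gene 2310057J18Rik was at -6.89 and 0.21. The mean of the 20 gland genes was 5.95 in WT CFA+PTX, 10.68 in H3RKO CFA+PTX, 10.25 and 10.26 in WT and H3RKO CFA, and for the untreated arrays 8.16 and 10.86 (WT) and 10.31 and 11.02 (H3RKO). Gland and brown fat levels were both lowest in the WT CFA+PTX array, but in the H3RKO CFA+PTX array the gland level was above that of both CFA arrays while the brown fat level was below. The gland genes are outside the usual expression of LN, and the part of attached gland tissue was not tested.

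The other 36 genes of the WT pair rule were 23 lower and 13 higher. Several of the 23 had the array order of the gland list, 2310057J18Rik among them. Dcpp3 was 6.95 in WT CFA+PTX, 7.85 in 1 untreated WT array and 11.10 to 12.29 on the rest. Scgb1b27 (6.45, 7.28 and 10.39 to 12.43) and Ggh (9.02, 9.26 and 11.08 to 12.31) ran the same way. Plet1 and Fxyd3 were also low on those arrays alone. Chil3, a chitinase-like protein of myeloid cells, was 6.57 in WT CFA+PTX and 8.23 in WT CFA, against 8.10 and 7.85 in H3RKO, while the untreated arrays gave 6.63 and 6.88 for WT and 8.94 and 8.25 for H3RKO. The higher genes included Retn, resistin of fat cells (1.24 in WT, -0.38 in H3RKO), Lep, leptin (1.03 and 0.17), Vdr, the vitamin D receptor (1.06 and 0.41), Stc1, stanniocalcin (1.05 and 0.20), and Itih4, an acute phase inhibitor chain (1.39 and 0.55). Itih4 was above all 6 other arrays in both genotypes (7.94 and 6.84 with PTX, 6.55 and 6.29 with CFA, 5.79 to 6.01 untreated), and its relative Itih3 ran the same way (0.59 ± 0.10 SE). They lay outside the same-direction class only by the size of the smaller pair. Myh4, Tnnc2 and Acta1, genes of skeletal muscle fibres, were higher in WT and lower in H3RKO. Tnnc2, for example, was 6.21 and 4.76 in WT and H3RKO CFA+PTX, 4.89 and 6.05 with CFA and 4.85 to 6.79 untreated, so that the pairs crossed.

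In the H3RKO pair only, 4 of the 11 higher genes were proteases and the peroxidase of azurophil granules, made in neutrophil precursors. Mpo, myeloperoxidase, was 7.82 in H3RKO CFA+PTX and 5.89 in WT CFA+PTX, 6.08 and 5.75 in H3RKO and WT CFA, and 5.55 to 5.87 untreated. Prtn3, proteinase 3, was 8.24 and 6.98 with PTX in H3RKO and WT, and 6.24 to 6.85 on the other 6 arrays. Elane, elastase, was 8.18 and 6.91, and Ctsg, cathepsin G, 8.08 and 6.62. The H3RKO CFA+PTX array was the high one for all 4, and the WT CFA+PTX array was near the rest. Their genotype differences ran from 0.96 for Elane to 1.59 for Mpo, with unadjusted p from 0.000518 to 0.0059, of which Elane was under 2-fold.

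The neutrophil list as a whole had a median of -0.14 in WT and 0.30 in H3RKO, and 7 of its 24 genes passed the criterion for the genotype difference (0.533% of all genes). Other genes in the H3RKO pair only were Ppbp, a platelet chemokine (7.76 and 6.40 in H3RKO CFA+PTX and CFA, 5.45 and 4.90 in WT), Acot1, an acyl-CoA thioesterase (7.65 in H3RKO CFA+PTX, 5.70 to 6.20 on the others), Zbtb16, a factor induced by glucocorticoids, and Cd163, a macrophage scavenger receptor. The 8 genes lower in the H3RKO pair only included Thrsp, of lipogenesis (-1.05, against 0.29 in WT), and the carboxylesterases Ces1d (-1.09 and -0.23) and Ces1f (-1.12 and 0.45).

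**Figure D5:**
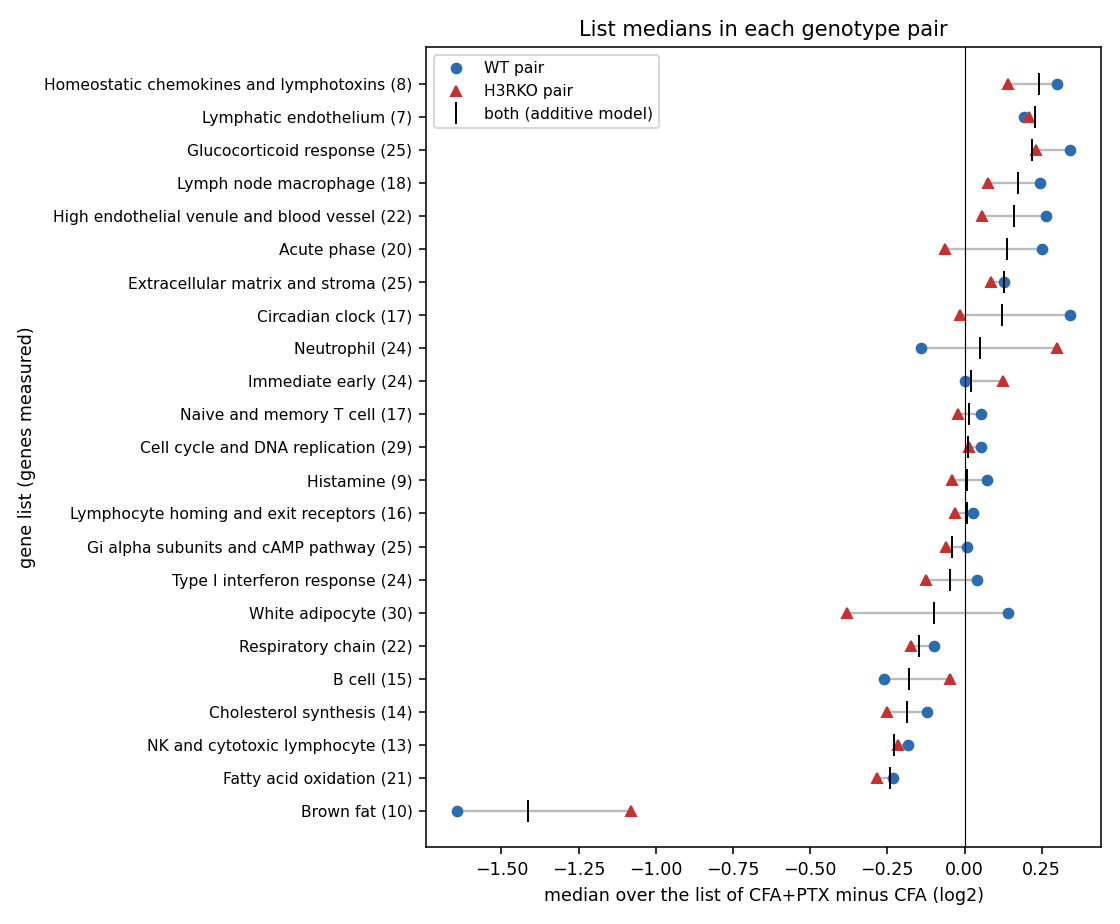
Medians of the CFA+PTX minus CFA difference (log2) over 23 gene lists (the gland list, at -1.86, is left out for scale), with the WT pair as blue circles, the H3RKO pair as red triangles and the additive model as black bars. Brown fat lies lowest of these 23 at -1.41, and the neutrophil, white adipocyte, acute phase and circadian clock lists are among those with the pairs on opposite sides of 0.

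The histamine genes, a list that holds the deleted Hrh3, had small PTX differences. Hdc, the enzyme that makes histamine, was 6.75 and 6.86 in WT and H3RKO CFA+PTX, 6.59 and 6.69 in WT and H3RKO CFA, and 6.36 to 7.40 untreated (difference 0.16 ± 0.21 SE). Hrh1 differed by -0.26 ± 0.18 and Hrh2 by -0.08 ± 0.11. Of the 9 measured genes 4 were higher in both pairs and 2 lower, with a median of 0.01.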

How the data were processed

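LN RNA from 8 pools was hybridized by the authors to GeneChip Mouse Genome arrays, and the deposited values are log2 signals that the authors made with the Robust Multichip Average (RMA) in Partek Genomic Suite 6.6. They run from 2.42 to 14.40. Of 22690 probe sets 64 controls were left out, and the remaining 22626 were tested. The annotation table gives 1 gene for 20380 of them, several for 691 and none for 1555.

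Differences were fitted with limma 3.58.1 (lmFit and eBayes) in R 4.3.3 as an additive model of genotype and treatment over 8 arrays, with 4 residual degrees of freedom. Genotype differences of the PTX effect came from a model with 1 mean per group, with 2 residual degrees of freedom. Adjusted p-values are Benjamini-Hochberg over all probe sets. The methods' criterion was a fold change over 2 at an unadjusted p under 0.05. Gene lists (47) carry counts and medians and no test.

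Genes past the criterion with the same sign in both pairs (at most 12 per direction), up to 5 members per list, the 10 largest WT-only differences, the toxin's targets and the histamine genes are named by rule, and others were named after their values were seen. The members and lists were chosen with earlier results of these data known. The fits were tested on simulated data. Alternatives were the variance estimate, normalization, centring, filters, probe set per gene, a replicate block, covariates for the 3′ to 5′ difference and the sex mix, the arrays in the fit, the model, the fold change and each array left out. The number of arrays limits the precision. Tables and plots were made in Python 3.11.15 with numpy 2.4.6, pandas 2.3.3 and matplotlib 3.10.9.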

Additional observations from a re-analysis of the deposited data

How the results depend on the processing

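The counts for PTX moved with the arrays in the fit. At the criterion 15 probe sets passed in the full fit, 13 to 53 with 1 array left out (33 without WT CFA, 43 without H3RKO CFA, 53 without H3RKO CFA+PTX), 26 with a mean for each group and 84 at 1.5-fold. At an adjusted p under 0.05 the count was 0, and 0 to 2 with 1 array left out (2 without H3RKO CFA). The 11 genes of 1 sign became 7 without moderation of the variance, 51 at 1.5-fold and 9 to 20 with 1 array left out (20 without H3RKO CFA+PTX). Past 2-fold in both pairs, 0 genes were higher and 5 lower, where 1.5-fold gave 10 and 12. For the genotype difference, 167 probe sets passed the criterion, 37 without moderation and 481 at 1.5-fold. The count was 111 without the probe sets whose names end in _s_at, _x_at or _a_at. At an adjusted p under 0.05 the 0 became 8 with trend and robust fitting, and 0 to 12 with an untreated array left out (12 without either WT untreated array). With a replicate block on the untreated arrays, which share only a number, 14 probe sets passed for PTX and 234 for the genotype difference at the criterion, and 6 for the latter at an adjusted p under 0.05. The cause was not tested.

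List medians that moved by more than the spread between replicates did so mainly between the pairs. In WT alone they were 0.14 for white adipocyte, 0.34 for circadian clock, 0.26 for blood vessel, -0.26 for B cell, 0.0092 for Gi and cAMP, 0.30 for homeostatic chemokine, -0.14 for neutrophil, 0.25 for acute phase, -4.57 for gland and 0.072 for histamine genes. In H3RKO alone they were -0.38 for white adipocyte, 0.13 for immediate early, 0.057 for blood vessel, -0.046 for B cell, -0.059 for Gi and cAMP, 0.14 for homeostatic chemokine, 0.30 for neutrophil, -0.0635 for acute phase, 0.35 for gland and -0.04 for histamine genes. Centring on array medians gave -0.074 for Gi and cAMP, 0.21 for homeostatic chemokine and -0.024 for histamine genes, and the median over probe sets gave 0.20 for homeostatic chemokine genes. No genotype difference could be fitted without a treated array, and its counts are over probe sets, so no value per gene was chosen there. Of the 11 genes, Ucp1, Slc27a2, Fabp3 and Pck1 did not pass the criterion without moderation, Fabp3 and Pck1 with trend and robust fitting, Fabp3 without a genotype term, Gpd1 and Pck1 with the sex mix as covariate, and Pck1 with the 3′ to 5′ difference as covariate. No named gene's called direction reversed.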

Other observations

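Clock genes, which time the day in most cells, were higher with PTX in both pairs for 8 of 17 and lower for 1, and the median was 0.34 in WT and -0.01 in H3RKO. Per1 was above all 6 other arrays (difference 0.30 ± 0.11 SE), as were Nfil3 (0.33 ± 0.11) and Rora (0.33 ± 0.13), whereas Dbp differed by 0.44 in WT and -0.43 in H3RKO. The hour of day at which the pools were taken is not given in the sources used here. Complement genes were higher in both pairs for 8 of 12 (median 0.18), with C1s1 at 0.31 ± 0.08, Serping1 at 0.30 ± 0.08 and C1ra at 0.27 ± 0.09, each above all 6 other arrays. Of 18 genes of apoptosis and p53, 8 were higher and 3 lower in both pairs and 7 had opposite signs (median 0.06, against 26.6% and 29.2% of all genes), with Bcl2, which protects cells, at 0.41 ± 0.11 and Bcl2l11 and Bbc3, which kill them, at 0.40 ± 0.11 and 0.29 ± 0.09.

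The mean of 24 type I interferon response genes was 10.15 and 9.86 in WT and H3RKO CFA+PTX and 10.14 and 9.99 in WT and H3RKO CFA, while the untreated arrays ran from 9.21 to 10.09 and so overlapped both. Their PTX difference had a median of -0.05, with 1 gene higher and 8 lower in both pairs. Cell cycle genes were below untreated in both treatments (medians -0.28 with CFA and -0.24 with PTX), and the PTX difference had a median of 0.01. For both lists no gene had an unadjusted p under 0.05 in either direction. Il1rn, the interleukin-1 receptor antagonist, was 7.21 and 7.30 in WT and H3RKO CFA+PTX and 7.41 to 7.88 on the other 6 arrays (difference -0.45 ± 0.14 SE), and Ccl11, eotaxin, was 8.19 and 7.90 with PTX, 7.50 in both CFA arrays and 8.00 to 8.51 untreated.

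Of the probe sets past the criterion for PTX, 2 had no gene in the annotation table, with differences of 1.19 ± 0.49 and 1.61 ± 0.41 SE. In the WT pair they were 2.33 and 2.25, and in the H3RKO pair 0.05 and 0.98. The first was 12.81 in WT CFA+PTX, 10.48 in WT CFA and 12.46 and 12.57 in the untreated WT arrays, and between 9.09 and 9.27 on all 4 H3RKO arrays.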
